A study of Homo sapiens with 5 samples.

Results

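The OAS family consists of OAS1, OAS2, OAS3 and OASL, and its H3K27ac peaks in HCT116 cells were described with and without interferon beta (IFN-β). Peaks were assigned to the family when their center lay within 20 kb of a transcription start site (TSS) of any of these 4 genes in GENCODE release 44. This gave 3 of the 20087 peaks in the authors' deposited table. OAS1 and OAS2 had no peak within 20 kb.

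The HCT116 line comes from a human colorectal carcinoma. The derivative used here carries osTIR1, the plant auxin receptor, under a CMV promoter, and RAD21 tagged with mAC. All cells were held for 6 h in 0.1% DMSO. The IFN-β group (2 libraries) then received 1000 unit/ml IFN-β for 1 h, while the control group (2 libraries) was not treated further and carries a time label of 0 min. Whether the control cells were collected 1 h earlier than the treated cells is not given in the sources used here. A single input library, labeled as mock with a later time than the control group, served as the background for peak calling. The ChIP-seq targeted H3K27ac, an acetylation of the histone H3 tail that is found at enhancers and promoters in use.

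OAS proteins are antiviral sensors of double-stranded RNA. On binding it, OAS1, OAS2 and OAS3 join ATP into short 2′-5′-linked oligoadenylates (2-5A), a messenger of the antiviral response. OASL has lost the synthetase activity and carries ubiquitin-like repeats, through which it acts on RNA sensing by RIG-I. The genes are classical interferon targets, switched on by ISGF3, a complex that includes STAT2 and IRF9, forms after the interferon receptor is engaged and binds interferon-sensitive response elements (ISREs).

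The signal of a peak is given as the log2 of the authors' mean of normalized reads per library in each group. The signal columns of the table are means over libraries, with no value per library, so no SD and no test between the groups was computed here, and the table's columns of the authors' own comparison were not used. A difference is the IFN-β value minus the control value in log2 units. Over all 20087 peaks the median difference was -0.69 and the SD across peaks was 0.456, with a median signal of 5.04 in the control and 4.39 with IFN-β. The differences of the OAS peaks and the medians of the gene lists are therefore also given relative to this median. Of 8 epithelial marker genes, 6 had a peak within 5 kb of a TSS, with control signals from 4.48 to 7.10. VIL1 and CDX1 had none. The KRT18 peak lay 247 bp from a TSS of KRT18 but nearer to one of KRT8. Of all protein-coding genes, 61.9% had a peak within 5 kb of a TSS. Of 8 markers of blood, vessel and connective tissue cells, 2 had such a peak. These were COL1A1, with a peak 199 bp from its TSS, and CD68, whose peak lay 3444 bp away and nearest to MPDU1.

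OAS1, OAS3 and OAS2 lie in this order on the plus strand of chromosome 12, with 31.5 kb between the canonical TSSs of OAS1 and OAS3 and 40.0 kb between those of OAS3 and OAS2. OAS1 (ENSG00000089127.15) spans 112905856 to 112933219 in GRCh38, OAS3 (ENSG00000111331.14) spans 112938051 to 112976460 and OAS2 (ENSG00000111335.14) spans 112978395 to 113011723. OASL (ENSG00000135114.14) lies 8.06 Mb away on the minus strand of the same chromosome, from 121017763 to 121039246. Reference promoters were found in the RefSeq table (GRCh38.p14) for 2 of the 4 genes, OAS1 and OAS3, and not for OAS2 and OASL. The 250 bases upstream of both TSSs are shown because the pair are neighbors and a peak was called at OAS3 only. They are the plus strand of chr12:112906712-112906961 for OAS1, which no peak covered, and of chr12:112938224-112938473 for OAS3, which lay whole within a peak. Capitals mark matches on either strand to the ISRE core (GAAA, any 2 bases, GAAA), or to GAAANGAAA, a form with 1 free base between the GAAA units that was added after the sequences were seen.
OAS1: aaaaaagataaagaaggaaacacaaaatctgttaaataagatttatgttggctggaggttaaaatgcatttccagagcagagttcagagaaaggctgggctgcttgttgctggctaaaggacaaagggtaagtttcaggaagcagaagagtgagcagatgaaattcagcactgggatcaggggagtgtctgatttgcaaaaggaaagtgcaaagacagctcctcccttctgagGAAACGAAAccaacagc
OAS3: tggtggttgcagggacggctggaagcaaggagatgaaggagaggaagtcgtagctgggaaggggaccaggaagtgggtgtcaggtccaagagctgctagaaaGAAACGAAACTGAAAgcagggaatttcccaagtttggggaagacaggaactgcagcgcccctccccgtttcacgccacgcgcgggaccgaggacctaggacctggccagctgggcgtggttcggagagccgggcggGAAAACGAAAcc

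The OAS3 promoter held 2 exact ISRE cores, GAAACTGAAA from 143 to 134 bp and GAAAACGAAA from 12 to 3 bp upstream of the canonical TSS. The first of these overlapped a match to the form with 1 free base, GAAACGAAA, from 148 to 140 bp upstream. The OAS1 promoter held no exact ISRE core, and the same GAAACGAAA from 17 to 9 bp upstream. Among the 35116 RefSeq promoters of 300 bases, 3.57% held the ISRE core and 3.12% the form with 1 free base. GC content over the 300 bases was 61.3% for OAS3 and 17.3 percentage points lower for OAS1. A GC box (GGGCGG, either strand) stood from 18 to 13 bp upstream of OAS3, next to the second ISRE core. OAS1 had no GC box in its RefSeq promoter, and GC boxes were present in 45.0% of all promoters. The OAS1 promoter had a match to the STAT binding core TTCNNNGAA (GAS core) from 168 to 160 bp upstream, a sequence found in 7.66% of all promoters.

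**Figure D1:**
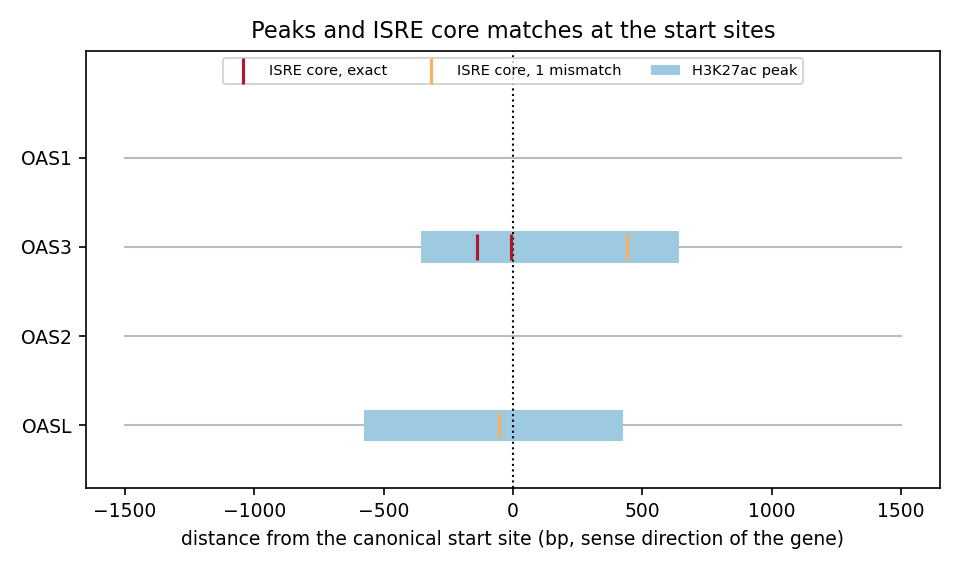
H3K27ac peaks (blue bars) and matches to the ISRE core (red, exact; orange, 1 mismatch, searched within peaks only) around the canonical start sites of OAS1, OAS3, OAS2 and OASL, by distance in bp in the sense direction of each gene. OAS3 and OASL each have a peak across the start site, OAS1 and OAS2 have none, and the exact cores of OAS3 lie upstream of its start. OAS2 has neither a peak nor a reference promoter here, so its empty row does not show that the ISRE core is absent.

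OAS3, the largest synthetase of the family, was marked in both conditions and higher with IFN-β. Its peak (chr12:112938118-112939118) is centered 144 bp downstream of the canonical TSS, in exon 1, and also lies within the antisense lncRNA ENSG00000257452, which spans from 112907628 to 113017751. The authors' mean signal was 5.37 in the control (41.4 normalized reads per library) and 5.74 with IFN-β (53.4 normalized reads). The difference was 0.37, or 1.29 times the control, and 1.06 above the median of all peaks. In the control 59.1% of all peaks had a lower signal than OAS3, and with IFN-β 88.9% did. The peak ranked 408 of 20087 by difference. Among the 5663 peaks whose signal over all libraries was within 0.5 of that of OAS3, the differences ran from -1.15 at the 5th percentile to -0.23 at the 95th, and 32 were as large as that of OAS3 or larger, OAS3 included.

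OASL had little signal in the control and 3.97 times as much with IFN-β. Its peak (chr12:121038820-121039820) is centered 74 bp upstream of the canonical TSS and reaches into exon 1. The authors' mean signal was 2.34 in the control (5.06 normalized reads per library) and 4.33 with IFN-β (20.1 normalized reads). The difference of 1.99 was 2.68 above the median of all peaks and ranked 10 of 20087. Only 3.68% of peaks had a lower control signal, and 48.1% had a lower signal with IFN-β, so that the peak stood near the middle of the table after IFN-β. Of the 4507 peaks within 0.5 of its signal over all libraries, 2 had a difference as large or larger, OASL included, while the 95th percentile was 0.26. The control value rests on few reads, and with 1 read added to both group means the difference was 1.80. Peaks were called in each library and merged over both groups, so a peak low in the control may enter the set through the IFN-β libraries alone. Which libraries called the OASL peak was not examined. Its difference and ranks may therefore partly reflect how the set was formed.

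OAS3 and OASL thus differed more in the control than with IFN-β. The OAS3 signal was 8.17 times that of OASL in the control and 2.66 times with IFN-β. In normalized reads per library the gain was 12.1 at OAS3 and 15.0 at OASL. These gains were not adjusted for the median difference of -0.69 over all peaks, and their order depends on that scaling. The 1.62 by which the log2 difference of OASL exceeded that of OAS3 could not be tested without values per library.

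The third peak assigned to the family was not at an OAS promoter, and its values are not reported here. When only the TSSs of protein-coding OASL transcripts were used, it was no longer assigned to the family.

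OAS1, the shortest synthetase, and OAS2 had no peak called at any of their TSSs. The nearest peak to both was that of OAS3, 23067 bp from the closest of 19 annotated TSSs of OAS1 and 39777 bp from the closest of 12 of OAS2. A missing peak says that no peak was in the merged set of the authors, and no signal can be read for these promoters from the table. Among all 20046 protein-coding genes, 29.9% had no peak within 20 kb.

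**Figure D2:**
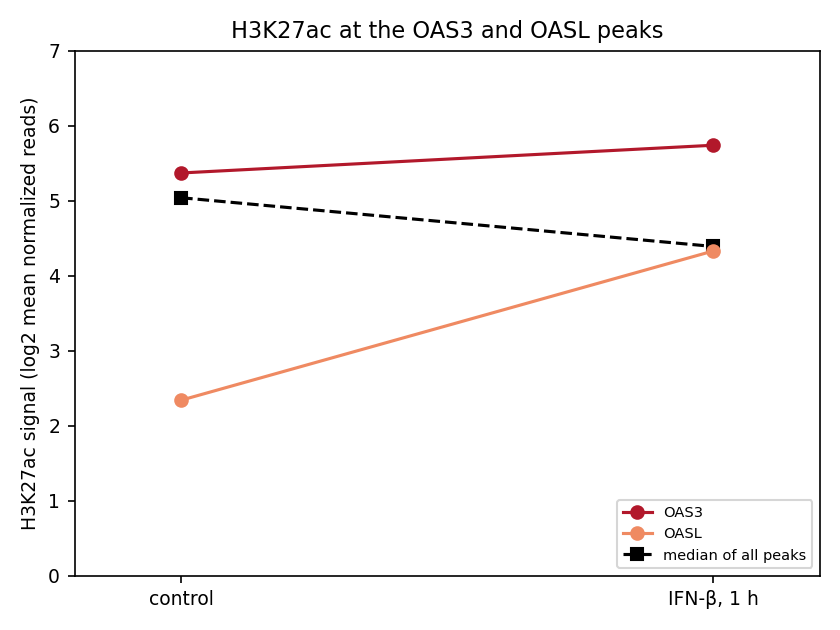
H3K27ac signal (log2 of the authors' mean normalized reads, 2 libraries per group) in the control and after 1 h of IFN-β at the peaks of OAS3 and OASL, with the median of all peaks as black squares. OASL goes from 2.34 to 4.33 and OAS3 from 5.37 to 5.74, while the median goes from 5.04 to 4.39.

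Of the 3 peaks of the family, 2 had a difference above 0, compared with 5.93% of all peaks and 2.81% of the peaks within 1 kb of a protein-coding TSS. The same 2, OAS3 and OASL, were more than 1 above the median of all peaks, compared with 2.44% of all peaks and 1.17% of those within 1 kb of a protein-coding TSS. The median of the 3 differences was 0.37. When each protein-coding gene was given the peak nearest to one of its TSSs, within 5 kb, OASL had rank 4 and OAS3 rank 113 by difference among 12414 genes. Genes that share a peak share its value in this ranking. For OASL, these counts and ranks carry the limit of the merged peak set given above.

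**Figure D3:**
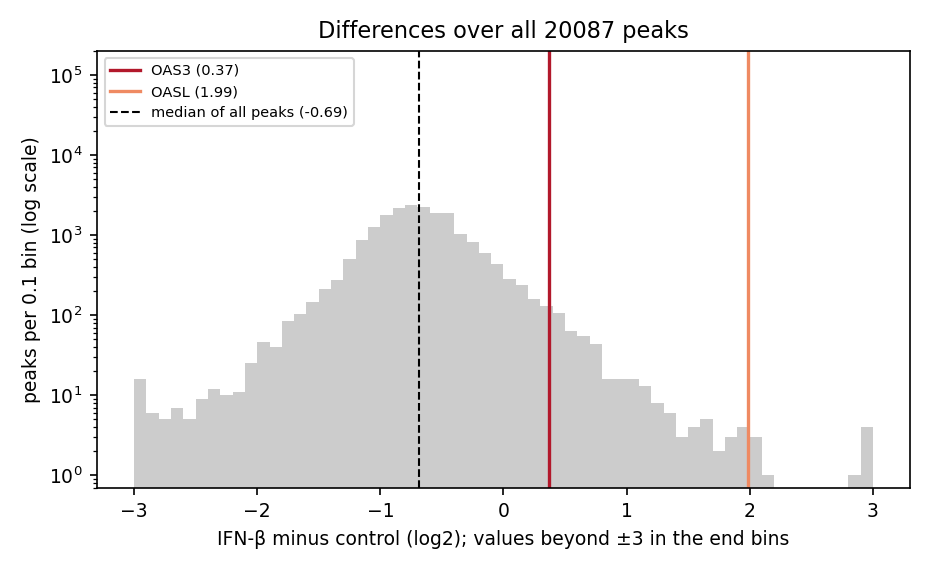
Number of peaks (log scale) by IFN-β minus control difference in log2 bins of 0.1, with values beyond 3 in the end bins. Vertical lines mark OASL at 1.99, OAS3 at 0.37 and, dashed, the median of all peaks at -0.69.

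The peaks around the members had medians near that of the table and varied among themselves. From 500 kb before the TSS of OAS1 to 500 kb beyond that of OAS2, 12 other peaks had differences from -1.25 to 0.14, with a median of -0.74, and 1 was above 0. That 1 lies 4198 bp from a TSS of LHX5, and it was named after its value was seen. Within 500 kb of OASL, 15 other peaks had differences from -1.60 to -0.49, with a median of -0.72, and none was above 0. The protein-coding genes with a start-site peak in these windows include RPL6, a protein of the large ribosomal subunit, at -0.30, PTPN11, a phosphatase of growth factor signaling, at -0.79 and TPCN1 at -1.16 near the OAS cluster. Near OASL they include POP5 at -0.49, P2RX4, an ATP-gated channel, at -0.72 and KDM2B, a histone demethylase, at -1.41.

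**Figure D4:**
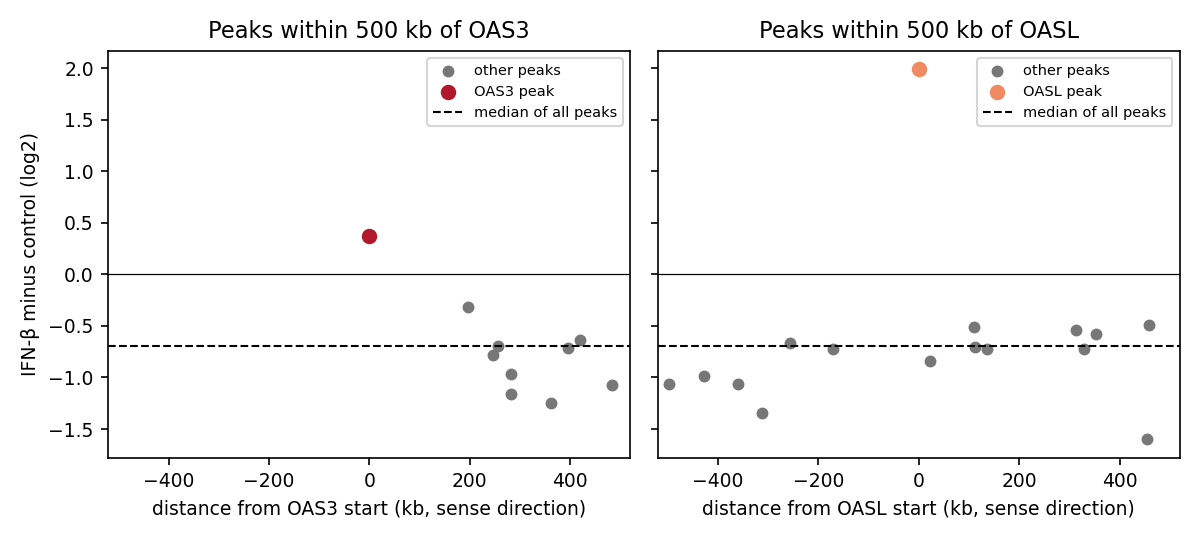
IFN-β minus control differences (log2) of all peaks within 500 kb of the canonical start of OAS3 (left) and OASL (right), by distance in kb in the sense direction of the gene. OAS3 at 0.37 and OASL at 1.99 are the highest points, and the other points shown are all below 0.

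The OAS3 and OASL peaks differed in sequence. Within 500 bp of its center, the OAS3 peak held 2 exact ISRE cores, compared with at least 1 in 11.6% of all 20087 peaks. The OASL peak held none. With 1 mismatch allowed, a setting met by 69.5% of all peaks, OASL had 1 match, from 59 to 50 bp upstream of its TSS. The absence of a match says only that these letters are not in the window. The GAS core was found in neither of these 2 peaks and in 21.8% of all peaks, and the TATA box (TATAAA) in neither and in 28.6% of all. A GC box was present in both (67.3% of all peaks), and the CCAAT box in that of OAS3 (61.9% of all peaks). GC content was 56.5% at OAS3 and 52.8% at OASL, compared with a median of 64.2% for peaks within 1 kb of a protein-coding TSS. The peaks within 2.5 percentage points of the GC content of OAS3 (2725 peaks) and of OASL (2372 peaks) had median differences of -0.69 and -0.65, compared with -0.69 for all peaks.

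Genes that act with the OAS proteins were described by their start-site peaks, the peak nearest to a TSS within 5 kb. Of all protein-coding genes, 61.9% had a start-site peak. Of the genes linked to 2-5A action and breakdown, 3 are given here, and 2 of the 3 were above the median of all peaks. None of the 3 was above 0, as was the case for most peaks. Of all peaks 5.93% were above 0, and of those within 1 kb of a protein-coding TSS 2.81% were. The 3 genes were PDE12, a phosphodiesterase that degrades 2-5A, at -0.32 (5.76 in the control and 5.44 with IFN-β), ABCE1 at -0.59 (5.81 and 5.22), and AKAP7 at -0.97 (5.34 and 4.37). The ABCE1 peak lies nearest to a TSS of ANAPC10. The median of the 3 was 0.10 above that of all peaks.

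Among 8 other sensors and effectors of double-stranded RNA, 5 had a start-site peak, close to the 61.9% of all protein-coding genes. Of these 5, 4 were above 0, compared with 5.93% of all peaks and 2.81% of those within 1 kb of a protein-coding TSS. RIGI, the RNA helicase sensor with which OASL interacts, had the highest difference at 1.08, from 4.87 in the control to 5.95 with IFN-β. EIF2AK2 (PKR), the kinase that blocks translation on double-stranded RNA, had 0.80, from 5.15 to 5.95. IFIH1 (MDA5), a helicase sensor of long double-stranded RNA, had 0.25, and ADAR, an editing enzyme of double-stranded RNA, had 0.23. MAVS, the adaptor of both helicases on mitochondria, had -0.61. DHX58, ZBP1 and TLR3 had no start-site peak. The median of the 5 was 0.25, or 0.94 above that of all peaks.

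Of 3 genes given here whose products share the nucleotidyltransferase fold of the OAS proteins, CGAS, the DNA sensor that makes cyclic GMP-AMP, had no start-site peak. ILF2 and STRBP had differences of -0.94 and -0.61, around the median of all peaks. In the interferon receptor and ISGF3 list the 6 genes given here all had a start-site peak, compared with 61.9% of all protein-coding genes. Of these 6, 2 were above 0, compared with 5.93% of all peaks and 2.81% of those within 1 kb of a protein-coding TSS. All 6 were above the median of all peaks, and the median of the 6 was 0.25 above it. The 2 above 0 were ISGF3 subunits, IRF9 at 1.29 and STAT2 at 0.46. The receptor chains IFNAR1 and IFNAR2 were at -0.66 and -0.67, and their kinases JAK1 and TYK2 at -0.47 and -0.41. The OASL difference of 1.99 was higher than that of any other gene given here from the 4 lists, and that of OAS3 lay between STAT2 and IFIH1.

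**Figure D5:**
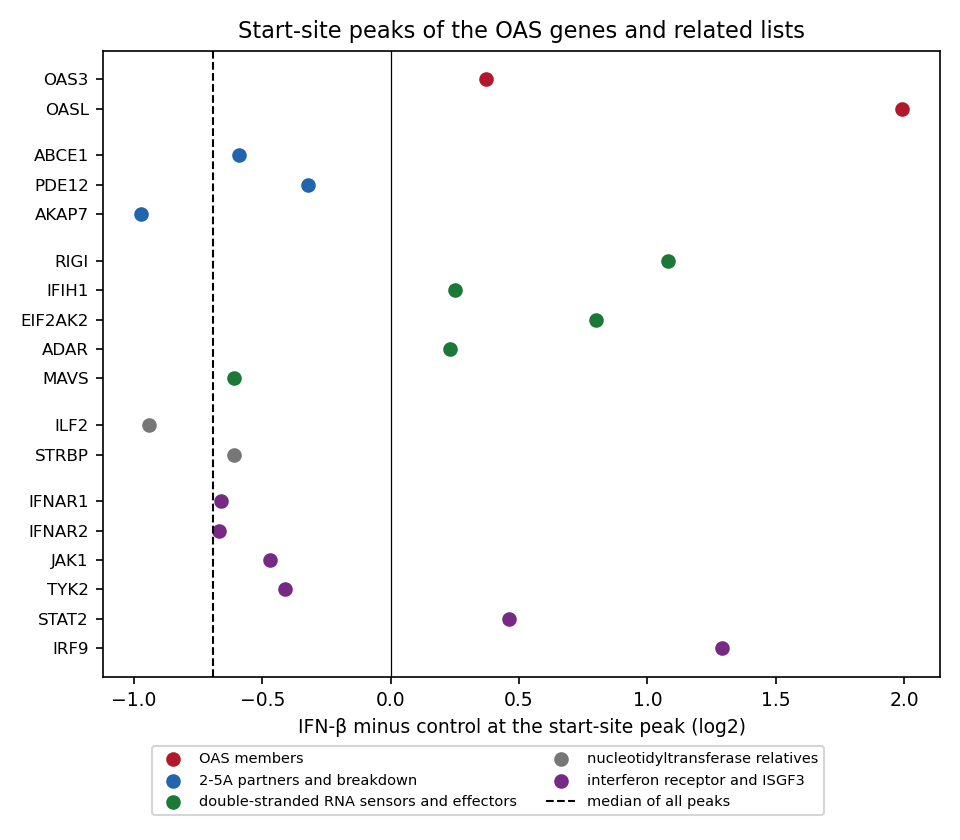
IFN-β minus control difference (log2) at the start-site peak of each gene, colored by list, with the median of all peaks at -0.69 as a dashed line. OASL at 1.99 lies furthest to the right, followed by IRF9 at 1.29 and RIGI at 1.08. The genes linked to 2-5A action and breakdown lie left of 0.

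The start-site peaks most alike in pattern were found by the Euclidean distance over both group values, among 11333 other peaks within 1 kb of a protein-coding TSS. With 2 values per peak this is a coarse measure. For OAS3 these were the peaks of IFIH1, CST6 and FEZ2, at distances of 0.102, 0.122 and 0.142. For OASL they were TDRD7 (2.81 in the control and 4.36 with IFN-β), TRIM21 (2.96 and 4.72) and NOL10 (2.69 and 3.62), at distances of 0.471, 0.733 and 0.792. OASL and OAS3 had no other peak within 0.1.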

How the data were processed

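The authors trimmed reads with fastp 0.19.3, used Bowtie2 for alignment to GRCh38, ran MACS2 on each H3K27ac library against the input, and merged and counted peaks with DiffBind, which runs DESeq2 (tools and fastp version per the labels). The deposited table gives, for each peak, the log2 of mean normalized reads over all 4 H3K27ac libraries and over each group. Its columns of the authors' own comparison (log2 fold-change, p-value and FDR) were not used. Read depth per peak and library is not given there, so counting intervals were not computed.

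Differences between the group columns were taken in Python 3.11.15 with pandas 2.3.3 and numpy 2.4.6, and sequences were read with pysam 0.24.0 from the GRCh38 reference, after the search was tested on simulated data. Coordinates are as the table gives them. The canonical TSS is the Ensembl canonical one. With no values per library, no test was run. Named are all members, the genes of 4 lists, neighbors with a start-site peak within 500 kb and the 3 peaks most alike, and some peaks and genes under this rule are not reported here. The members and lists were chosen with earlier results of these data known. Alternatives changed the distance, the TSS set, the scaling, an added read and the motif. Figures were drawn with matplotlib 3.10.9.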

Additional observations from a re-analysis of the deposited data

How the results depend on the processing

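A count was taken as moved when it changed by more than 1.5 times, and a log2 difference when the fold it stands for did. The family's median difference of 0.37 was 1.18 within 5 kb or without the peak nearest to another gene (added after the data were examined), 1.06 after centring on the median of all peaks and 1.07 with equal summed signal. Centring on the median of all peaks and of peaks with like signal gave 1.06 and 1.10 for OAS3, and 2.68 and 2.62 for OASL. The 6 listed pathway genes above 0 became 14 after centring. Centring sets the median of all peaks to 0, so the share of 5.93% no longer applies to this count. By list, 2 of 3, 5 of 5, 1 of 2 and 6 of 6 genes with a start-site peak were then above 0. This is the order of the lists in the text. Some were above by little, such as IFNAR2 by 0.02 and IFNAR1 by 0.03. Peaks of the family with an ISRE core went from 1 to 2 with 1 mismatch. The other 18 values moved by no more than this. No paired analysis was possible because the table holds no column per library, and no library could be left out for the same reason.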
